A study of Mus musculus with 22 samples.

Results

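The 10 genes described here write, copy, protect or remove methyl groups on cytosine in DNA, and they were chosen by name from the 44749 entries of the count table, where all 10 were found. Dnmt1 and Uhrf1 copy methylation at replication. Dnmt3a, Dnmt3b and Dnmt3l lay down new methylation. Zfp57 protects methylation at imprinted regions. Tet1, Tet2 and Tet3 oxidise methylated cytosine, and Tdg excises oxidised forms. Their RNA was measured in 22 mouse embryonic stem cell (ESC) libraries. In DMSO-treated or wild-type ESCs every one of them was expressed, and the lowest count of any of the 10 genes in any library was 702, of Tdg.

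DNA methylation in mammals sits mostly on cytosines followed by guanine (CpG). After replication, UHRF1 binds the half-methylated site and brings in DNMT1, which methylates the new strand. DNMT3A and DNMT3B methylate unmodified DNA, helped in ESCs and germ cells by DNMT3L, which has no catalytic activity of its own. TET enzymes oxidise the methyl group stepwise and TDG removes the later products, after which base excision repair restores plain cytosine. ESCs kept in serum and LIF carry high DNA methylation and express both arms of the system.

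The cells were male ESCs derived from inner cell mass of 129 mice and grown without feeders in serum/LIF medium. In the first set, ESCs with a conditional Ythdc1 allele (Ythdc1 cKO) received 4OHT (4-hydroxytamoxifen) in 4 libraries, against DMSO, the vehicle, in 4 libraries. YTHDC1 is a nuclear protein that binds m6A, a methylated adenosine in RNA. The second set held 2 libraries labelled Mettl3 KO, against 2 labelled Mettl3 WT; METTL3 is the enzyme that writes m6A. The third set, all Ythdc1 cKO, held Dux-Het cells (2 libraries with 4OHT, 2 with DMSO), Dux-KO cells (2 with 4OHT, 2 with DMSO) and 1 pair with no Dux label (1 with 4OHT, 1 with DMSO). DUX is the transcription factor that opens the program of the early 2-cell embryo. The driver of Cre, the dose of 4OHT and its duration are not given in the labels. The first set came from 2 ESC lines, but the table's column names do not say which library belongs to which line, so its groups were compared as 4 against 4. In the third set, the genotype and treatment fields are shifted by 1 sample against the titles, and the titles, which match the column names, were used. Apart from the 2 lines of the first set, nothing in the labels tells whether replicates came from separate cultures. The p-values of the other sets can therefore reflect technical spread alone. Those of the first set can rest on as few as 2 cultures in each group.

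Library totals ran from 24955414 to 54139132 counts, and no pair of replicates agreed as closely as 1 library deposited again would. Levels are given as CPM, a gene's count relative to the size of its library after scaling over all 22 libraries. Ythdc1 RNA was lowered only in part in the first set, at 56.6 ± 6.78 CPM with 4OHT and 77.1 ± 4.56 CPM with DMSO (SD, n = 4 each). Its log2 fold change there was -0.41 (edgeR adjusted p = 0.00064). The Dux set showed no change past the threshold, with -0.28 in Dux-Het (edgeR adjusted p = 0.456) and -0.09 in Dux-KO cells (edgeR adjusted p = 0.843). A gene's count also takes in exons that the deletion leaves. Mettl3 itself stood at 14.5 and 28.5 CPM in the libraries labelled Mettl3 KO, against 28.7 and 29.9 CPM in Mettl3 WT (log2 fold change -0.44, edgeR adjusted p = 0.207). Mettl3 RNA in the second KO library was close to WT, so directions below rest on the labels, and Mettl3 KO stands for libraries so labelled. All 8 ESC markers were detected in every group, and no ESC marker was at 0.

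Promoter sequences, which the choice of genes did not use, were searched for short words. Windows of 300 bases, from 250 before to 50 after an annotated start, were taken from RefSeq on GRCm38.p6, and the 10 genes have 19 of the 32851 windows. The most CpG-rich window of each of 4 genes is printed 5′ to 3′ on the gene's strand. Uhrf1 and Dnmt1 are shown as the windows that hold E2F-type words, and Tdg and Dnmt3l as windows without one whose genes also changed with 4OHT, Dnmt3l upward. Capitals mark E2F-type words, of the kind bound by the cell-cycle factors of that family: TTTGGCGC, TTTCCCGC, TTTGCCGC or TTTCGCGC on either strand. The windows are chr17:56304063-56304362 (plus strand) for Uhrf1, chr9:20952574-20952873 (minus strand) for Dnmt1, chr10:82629588-82629887 (plus strand) for Tdg and chr10:78042037-78042336 (plus strand) for Dnmt3l.
Uhrf1: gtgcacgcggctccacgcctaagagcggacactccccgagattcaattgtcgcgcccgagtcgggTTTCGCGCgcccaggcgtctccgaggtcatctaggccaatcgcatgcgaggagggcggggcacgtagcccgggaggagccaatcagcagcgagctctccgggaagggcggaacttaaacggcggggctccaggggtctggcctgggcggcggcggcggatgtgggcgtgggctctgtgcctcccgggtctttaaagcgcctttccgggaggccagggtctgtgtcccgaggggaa
Dnmt1: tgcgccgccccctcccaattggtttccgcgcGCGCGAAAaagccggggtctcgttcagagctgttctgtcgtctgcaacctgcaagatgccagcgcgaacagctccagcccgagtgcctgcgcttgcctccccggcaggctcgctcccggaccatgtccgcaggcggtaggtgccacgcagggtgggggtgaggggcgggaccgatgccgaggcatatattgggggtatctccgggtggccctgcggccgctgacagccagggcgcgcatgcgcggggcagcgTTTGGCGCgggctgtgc
Tdg: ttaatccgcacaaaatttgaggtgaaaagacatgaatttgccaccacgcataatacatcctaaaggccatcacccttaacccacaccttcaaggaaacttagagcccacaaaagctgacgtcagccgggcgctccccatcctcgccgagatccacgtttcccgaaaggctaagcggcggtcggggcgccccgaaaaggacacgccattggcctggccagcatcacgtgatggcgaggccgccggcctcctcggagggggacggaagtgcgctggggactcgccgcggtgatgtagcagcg
Dnmt3l: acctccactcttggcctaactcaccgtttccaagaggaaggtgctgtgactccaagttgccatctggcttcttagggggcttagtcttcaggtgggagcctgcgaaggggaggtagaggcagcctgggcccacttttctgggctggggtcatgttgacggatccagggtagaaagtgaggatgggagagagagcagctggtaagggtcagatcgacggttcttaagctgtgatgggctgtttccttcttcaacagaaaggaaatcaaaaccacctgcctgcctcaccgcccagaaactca

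The Uhrf1 window holds 1 E2F-type word, beginning at position -185, and the Dnmt1 window holds 2, beginning at -219 and 33, counted from 0 at the annotated start. Of the 19 windows these 2 were the ones with such a word, while 744 of all 32851 windows (2.26%) had one. Every E2F-type word contains a CpG, and both of these windows held more CpG than 91.4% of all windows. The share among windows of like CpG density was not counted. CCAAT on either strand, a common promoter word, was found in 7 of the 19 windows, against 37.4% of all windows. CACGTG was found in 3 of the 19 (7.15% of all) and GGGGCGGGG on either strand in 3 (11.4% of all). No match of one motif overlapped a match of another. CpG density differed widely among the genes, from 2 CpG in 1 Dnmt1 window to 57 in the Tet2 window, with a median of 7 over all windows. Dnmt3l had 6, 4 and 3 in its windows and Zfp57 had 6, 9 and 4, while the printed Uhrf1 and Dnmt1 windows had 33 each. A match is a run of letters and not evidence of binding.

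METTL3 methylates adenosine preferentially in contexts such as GGACT, so the density of this word in the longest coding transcript was counted. Tdg had 1.71 per kb, above 82.3% of 19349 genes, and Dnmt3a had 1.55 per kb, above 77% of them. Zfp57 followed with 1.54 and Uhrf1 with 1.39 per kb. Dnmt1 had 0.511 per kb, below the lower quartile of 0.615, and Dnmt3l 0.549 per kb, a single word in 1822 bases. Dnmt3b, Tet1, Tet2 and Tet3 lay between 0.905 and 0.98, near the median of 1.01 per kb. A word count says nothing of which adenosines are methylated.

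Dnmt3l, Tet1 and Tdg lie on chromosome 10 and Uhrf1 and Zfp57 on chromosome 17, and coordinates are from GENCODE vM21 on GRCm38. Uhrf1 spans chr17:56303321-56323486 and Dnmt1 spans chr9:20907209-20959888. Dnmt3a spans chr12:3806007-3914443, Dnmt3b chr2:153649450-153687730 and Dnmt3l chr10:78041947-78063622. Zfp57 spans chr17:37001163-37010635. Tet1 spans chr10:62804570-62908996, Tet2 chr3:133463679-133545139, Tet3 chr6:83362373-83459084 and Tdg chr10:82629828-82650799. Exons of Dnmt3l share 67 bases with antisense Aire, which had 21529 counts in all against 99235 for Dnmt3l, and exons of Tdg share 367 bases with antisense Glt8d2 (1566 against 29696 counts). No source used here says whether strand was used in counting, so reads in those shared bases cannot be assigned with certainty. Near-copies exist too, Tdg-ps for Tdg, Dnmt3c for Dnmt3b and Dnmt3l-ps1 for Dnmt3l, and reads could be split between them. Dnmt3c averaged 0.935 CPM with 4OHT and 1.25 CPM with DMSO in the first set. It had 3.53 CPM in Mettl3 KO, 6.22 CPM in Mettl3 WT and from 6.1 to 14.9 CPM in the Dux-Het and Dux-KO groups. Any split could therefore differ between sets, and its effect on the levels was not tested.

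Per length, Tet1 was the most abundant of the 10 RNAs. Its median level over the 22 libraries was 69.5 CPM per kb of exon, followed by Uhrf1 at 45.7, Dnmt3b at 34.5, Zfp57 at 33.2, Dnmt3l at 33.1 and Dnmt1 at 28.5 CPM per kb. Tet2 (9.58), Dnmt3a (7.94), Tdg (5.75) and Tet3 (2.84 CPM per kb) formed the low end. The length is the union of all annotated exons, which exceeds the longest coding transcript unevenly. For Dnmt3l it is 2988 against 1822 bases, and for Uhrf1 4259 against 3586 bases. The order of genes with near values can therefore depend on the length used. Dnmt3l and Dnmt3b varied most across libraries. The highest Dnmt3l library had 188 CPM and the lowest 31.4, a ratio of 5.97, and Dnmt3b ran between 374 and 64.9 CPM, a ratio of 5.76. For the other 8 genes this ratio was between 1.94 and 2.66.

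**Figure D1:**
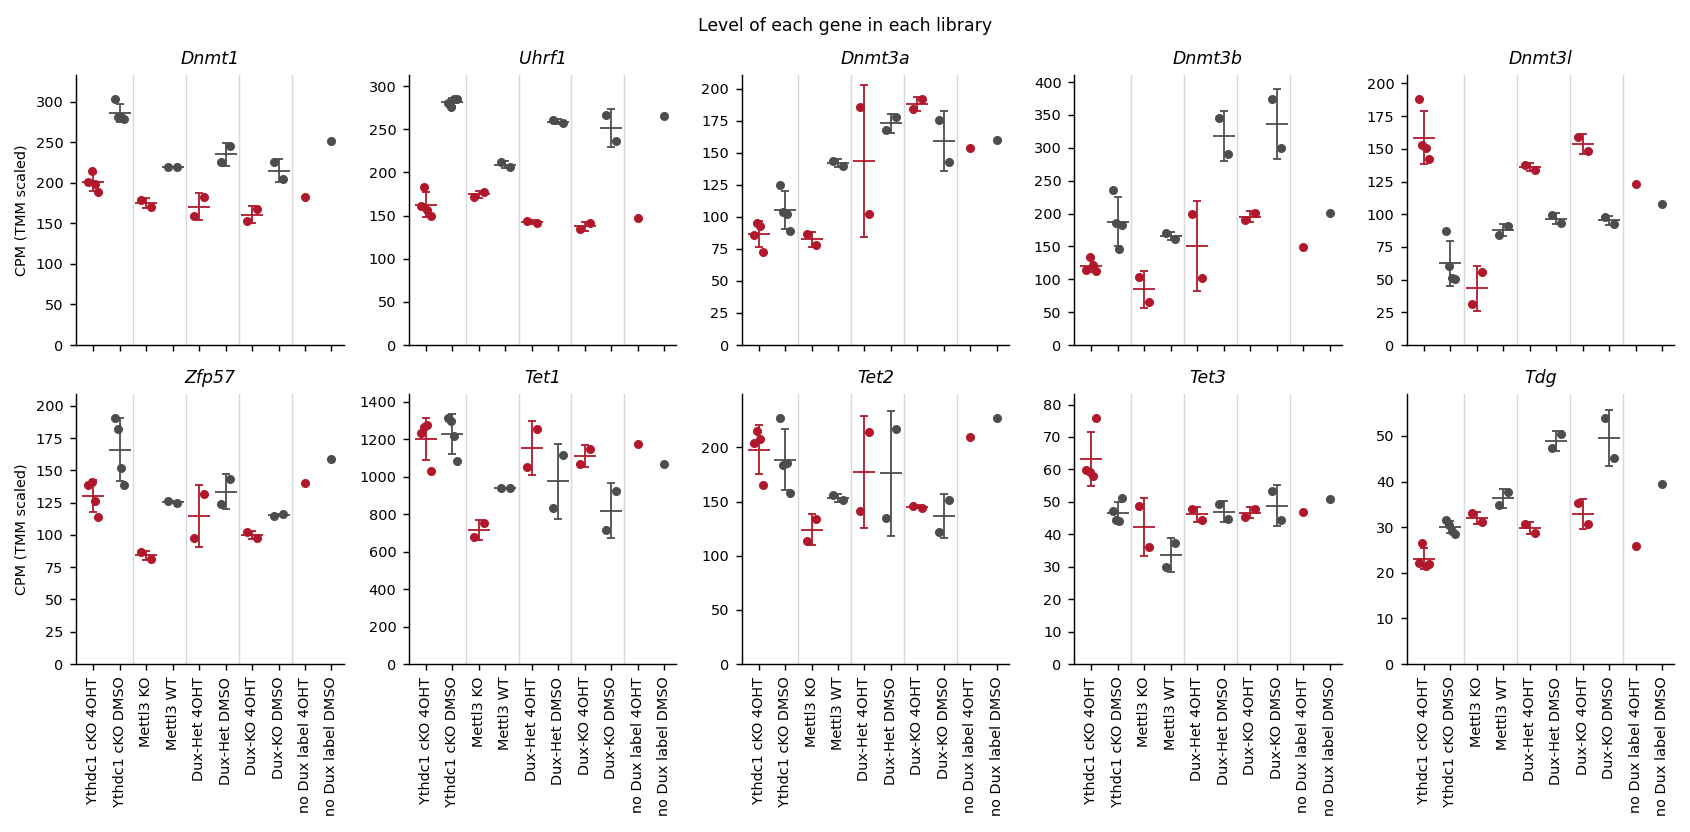
Level of each gene in every library, in CPM after scaling, with groups along the horizontal axis; red points are 4OHT or Mettl3 KO libraries and grey points are DMSO or Mettl3 WT libraries, and bars give the mean and SD where a group has more than 1 library. Dnmt3l is higher with 4OHT than with DMSO in every pair of groups and lower in Mettl3 KO than in WT, while Uhrf1 and Dnmt1 are lower in the red groups throughout.

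In the first set, 4OHT treatment lowered the copying machinery, lowered Dnmt3b and raised Dnmt3l. Of the 10 genes, 8 changed at an adjusted p under 0.05 in edgeR's quasi-likelihood test with Benjamini-Hochberg adjustment over all entries, 2 higher and 6 lower. Over all 24385 entries tested, 45.1% changed, 23.7% higher and 21.4% lower. The groups did not overlap for 6 of the 10 genes, against 47.4% of entries with a mean of at least 1 CPM. The median log2 fold change of the 10 genes was -0.274, beside 0.016 over all entries. In bulk RNA, fewer cells of a type and less RNA per cell cannot be told apart.

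Uhrf1, the protein that finds half-methylated sites, had 161, 183, 157 and 149 CPM with 4OHT, against 281, 276, 285 and 285 CPM with DMSO. Every 4OHT library lay below every DMSO library by a wide margin. The log2 fold change was -0.75 ± 0.0621 (SE; edgeR adjusted p = 8.96e-08), or 1.69-fold lower. Dnmt1, the maintenance methyltransferase, had 201, 215, 199 and 188 CPM with 4OHT, against 303, 281, 280.4 and 279 CPM with DMSO. These groups did not overlap either. Its log2 fold change was -0.47 ± 0.055 (SE; edgeR adjusted p = 3.71e-06), 1.39-fold lower. Both genes passed the threshold in all 14 alternative settings tried for this comparison.

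Among the genes for new methylation, Dnmt3l and Dnmt3b moved in opposite directions. Dnmt3l, the catalytically inactive partner, had 188, 153, 151 and 142 CPM with 4OHT, against 87.1, 60.6, 51.5 and 50.2 CPM with DMSO. All 4OHT libraries were above all DMSO libraries. The log2 fold change was 1.39 ± 0.134 (SE; edgeR adjusted p = 4.96e-07), 2.62-fold, and it was the largest of the 10 in size. Dnmt3b, the main de novo enzyme of early embryonic cells, had 114, 134, 122 and 112 CPM with 4OHT, against 236, 186, 146 and 182 CPM with DMSO. The groups were separate, with DMSO replicate 3 nearest to the 4OHT range. Its log2 fold change was -0.60 ± 0.102 (SE; edgeR adjusted p = 0.000157). Dnmt3a, the other de novo enzyme, had 86, 95.1, 92.9 and 72.3 CPM with 4OHT, against 125, 104, 102 and 89.2 CPM with DMSO. Its groups overlapped, and its log2 fold change of -0.24 ± 0.0926 (SE; edgeR adjusted p = 0.0471) passed the threshold in 8 of 14 alternative settings. Without DMSO replicate 1 it was -0.15 (edgeR adjusted p = 0.155), and with gene entries alone -0.22 (edgeR adjusted p = 0.0618).

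Zfp57, the zinc finger protein that holds methylation at imprinting control regions, had 139, 141, 126 and 114 CPM with 4OHT, against 190.5, 182, 152 and 139 CPM with DMSO. The lowest DMSO library fell within the 4OHT range. The change passed the threshold, at -0.31 ± 0.0873 on the log2 scale (SE; edgeR adjusted p = 0.00809).

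Of the oxidising enzymes, Tet3 changed. It had 59.9, 59.2, 57.9 and 75.8 CPM with 4OHT, against 47.3, 44.3, 44.1 and 51.1 CPM with DMSO. The groups were separate, and 4OHT replicate 4 stood above the other 3. The log2 fold change was 0.47 ± 0.0863 (SE; edgeR adjusted p = 0.000289), and it passed the threshold in all 14 alternative settings, leaving out that library among them. Tet1, the dominant TET of ESCs, averaged 1201 ± 115 CPM with 4OHT and 1227 ± 106 CPM with DMSO (SD, n = 4 each). The 2 ranges lay on top of each other, and the 95% interval of its log2 fold change ran from -0.14 to 0.16 around 0.01 (edgeR adjusted p = 0.938). Tet2, the second TET of ESCs, averaged 198 ± 22.5 CPM with 4OHT and 189 ± 28.5 CPM with DMSO (SD, n = 4 each). Its interval ran from -0.09 to 0.30 around 0.11 (edgeR adjusted p = 0.38). Tdg, the glycosylase that follows the TETs, had 22.2, 26.5, 21.5 and 22 CPM with 4OHT, against 31.5, 30.5, 29.2 and 28.6 CPM with DMSO. Its groups did not overlap, and its log2 fold change was -0.34 ± 0.0802 (SE; edgeR adjusted p = 0.00257). Tdg-ps, its near-copy, averaged 1.11 CPM with 4OHT and 1.14 CPM with DMSO. Elsewhere Tdg-ps was higher, at 6.29 CPM with 4OHT and 9.5 CPM with DMSO in Dux-Het cells, and 6.63 and 9.1 CPM in Dux-KO cells. In the Mettl3 set it had 5.44 CPM in KO and 6.11 CPM in WT.

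**Figure D2:**
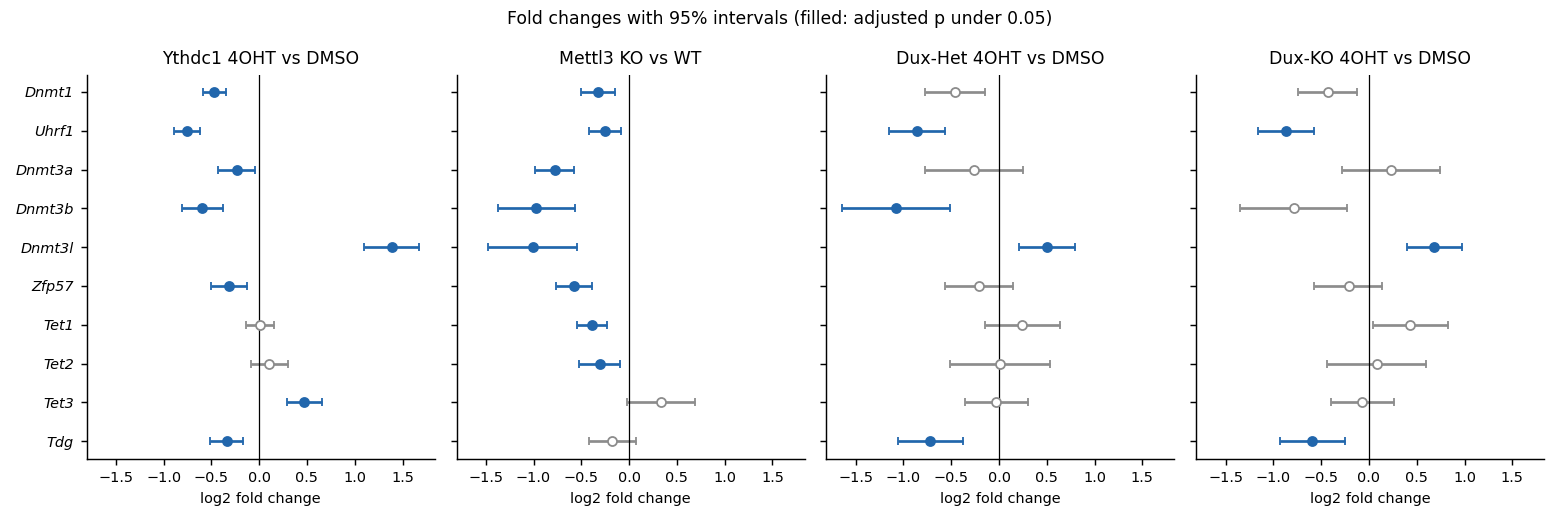
Log2 fold change of each gene with its 95% interval in the 4 within-set comparisons; filled points passed an adjusted p under 0.05. Uhrf1 lies left of 0 in all 4 panels, Dnmt3l lies right of 0 in the 3 panels of 4OHT and left of 0 for Mettl3 KO, and Tet1 differs in sign between panels.

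Summed levels of cell type markers in the same comparison were as follows. The 8 ESC markers summed to 1063 to 1317 CPM with 4OHT and 1525 to 1805 CPM with DMSO. Of these 8, 0 were called higher and 3 lower, beside 23.7% and 21.4% of all entries. Nanog (log2 fold change -1.45) and Tdgf1 (-0.87) fell most among those called, while Sox2 averaged 73.6 CPM with 4OHT and 73.4 CPM with DMSO. The 16 markers of 2-cell-like cells summed to 141 to 306 CPM with 4OHT and 11.3 to 51.6 CPM with DMSO, and the 9 of primitive endoderm to 439 to 651 CPM with 4OHT and 264 to 343 CPM with DMSO. Fibroblast markers (8 genes) summed to 94.2 to 168 CPM with 4OHT and 39.1 to 69 CPM with DMSO, and primed epiblast markers (7 genes) to 69.3 to 80.1 CPM with 4OHT and 57.2 to 68 CPM with DMSO. Of 6 fibroblast markers tested, 1 was called higher (Acta2, log2 fold change 1.60, edgeR adjusted p = 1.2e-05) and 1 lower (Thy1, -1.34, edgeR adjusted p = 0.000561), and of 7 primed epiblast markers 3 were higher and 3 lower. No marker of any list was at 0 in all libraries of either group. Repeat families took 26.87% to 28.45% of counts with 4OHT and 21.29% to 23.8% with DMSO. Their part in the changes of the 10 genes was not tested.

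Ratios of 2 genes within a library do not depend on how libraries are scaled, and 4 were fixed for testing. The log2 ratio of Dnmt3l over Dnmt3a counts averaged 0.872 ± 0.216 with 4OHT and -0.778 ± 0.193 with DMSO (SD, n = 4 each), a difference of 1.65 with no overlap (exact 2-sided permutation p = 0.0286, adjusted over the 4 ratios 0.0571). The log2 ratio of Uhrf1 over Dnmt1 averaged -0.305 ± 0.05 with 4OHT and -0.02 ± 0.061 with DMSO (SD, n = 4 each), again without overlap, and the difference was -0.285 (exact 2-sided permutation p = 0.0286, adjusted 0.0571). So Uhrf1 counts were lower relative to Dnmt1 in every 4OHT library. Dnmt3a over Dnmt3b differed by 0.344 with overlapping groups (exact permutation p = 0.0571, adjusted 0.0762), and Tet1 over Tet2 by -0.103 (exact permutation p = 0.2, adjusted 0.2). None of the 4 passed 0.05 after adjustment, and 0.0286 is the smallest raw p that 4 against 4 libraries allow. Adjusted over 4 ratios, that p passes 0.05 only where most of the ratios reach it. The adjusted values therefore cannot decide on the 2 ratios without overlap.

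**Figure D3:**
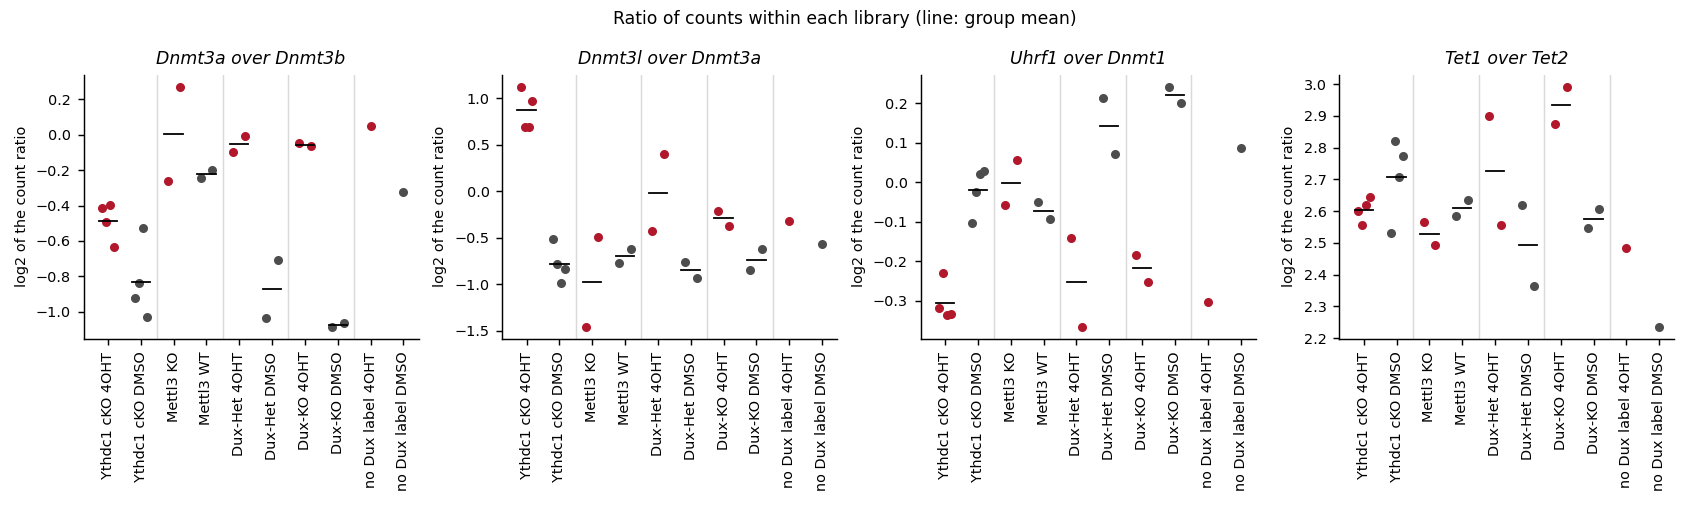
Log2 ratio of counts of 2 genes within each library, by group, with a line at the group mean; red points are 4OHT or Mettl3 KO and grey points DMSO or Mettl3 WT libraries. The Dnmt3l over Dnmt3a ratio averages 0.872 with 4OHT and -0.778 with DMSO in the first set, and the Uhrf1 over Dnmt1 ratio is lower with 4OHT in both Dux genotypes as well.

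In the libraries labelled Mettl3 KO, 8 of the 10 genes were lower than in Mettl3 WT at an adjusted p under 0.05 and 0 were higher. Of all 23977 entries tested, 31.2% changed and 14.9% were lower and 16.4% higher. The groups did not overlap for 9 of the 10 genes, Tet3 being the exception, where 69% of entries did not overlap. The median log2 fold change of the 10 was -0.357, beside 0.016 over all entries. These calls did not hold with every library left out. Once 1 library of a group is left out, the spread comes from the pair that stays whole, so effect sizes alone are given here. Without Mettl3 WT replicate 1 or 2, the log2 fold change was -0.77 or -0.81 for Dnmt3a and -1.07 or -0.96 for Dnmt3l. Without Mettl3 KO replicate 1 or 2, it was -0.86 or -0.72 for Dnmt3a and -0.66 or -1.49 for Dnmt3l.

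The 3 genes for new methylation had the largest differences. Dnmt3l had 31.4 and 55.7 CPM in Mettl3 KO, against 84.4 and 91.2 CPM in Mettl3 WT (log2 fold change -1.01 ± 0.209, SE; edgeR adjusted p = 0.00588). Dnmt3b had 104 and 64.9 CPM in Mettl3 KO, against 170.3 and 161 CPM in Mettl3 WT (-0.97 ± 0.177, SE; edgeR adjusted p = 0.0031). Both KO libraries lay below both WT libraries for each gene, and the KO libraries differed more between themselves than the WT libraries did. Dnmt3a had 86.4 and 78.4 CPM in Mettl3 KO, against 144 and 139.8 CPM in Mettl3 WT (-0.78 ± 0.0878, SE; edgeR adjusted p = 0.00025). Zfp57 had 86.7 and 81.6 CPM in Mettl3 KO, against 126 and 125 CPM in Mettl3 WT (-0.57 ± 0.0837, SE; edgeR adjusted p = 0.000949). Replicates of these 2 genes were close, and the gap between groups was several times the spread.

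The copying pair was lower in Mettl3 KO too. Dnmt1 had 179 and 170.5 CPM in Mettl3 KO, against 219.5 and 219.7 CPM in Mettl3 WT, and Uhrf1 had 172 and 177 CPM in KO, against 212 and 206 CPM in WT. Both were called lower, Dnmt1 at -0.32 (edgeR adjusted p = 0.0105) and Uhrf1 at -0.25 (edgeR adjusted p = 0.0298) on the log2 scale. Tet1 had 676 and 753 CPM in Mettl3 KO, against 938 and 937 CPM in Mettl3 WT (log2 fold change -0.39, edgeR adjusted p = 0.00332). Tet2 had 114 and 134 CPM in KO, against 156 and 151 CPM in WT (-0.31, edgeR adjusted p = 0.0347), and was not called when low counts were kept (edgeR adjusted p = 0.0797). Tet3 had 48.6 and 36 CPM in KO, against 30 and 37.3 CPM in WT. Its 95% interval ran from -0.02 to 0.69 around 0.33 (edgeR adjusted p = 0.145). Without KO replicate 1 or 2 its log2 fold change was 0.09 or 0.52. Tdg had 33 and 31.1 CPM in KO, against 34.8 and 37.8 CPM in WT, and its interval ran from -0.42 to 0.07 (edgeR adjusted p = 0.251). Marker sums in Mettl3 KO against WT were 1046 to 1071 against 1328 to 1332 CPM for ESC genes, 163 to 182 against 2.17 to 2.45 CPM for 2-cell-like genes (Tcstv1, Zfp352 and Tdpoz4 at 0 in WT) and 312 to 395 against 199 to 202 CPM for primitive endoderm. For fibroblast genes they were 31 to 64.7 in KO against 80.5 to 83.1 CPM in WT (Lum at 0 in WT), and for primed epiblast genes 55.9 to 93.6 against 93.8 to 102 CPM. Single genes did not all follow the sums. Of the 8 ESC markers, 2 were called higher and 3 lower, beside 16.4% and 14.9% of all entries. Nanog (0.45, edgeR adjusted p = 0.00321) and Klf4 (0.43, edgeR adjusted p = 0.0161) were higher. Tdgf1 (-1.62, edgeR adjusted p = 0.000171) and Utf1 (-0.76, edgeR adjusted p = 0.00221) were among the lower. Of 8 primitive endoderm markers tested, 2 were higher and 0 lower. The part of the markers in these changes was not tested.

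The 4OHT and Mettl3 KO effects were set against each other in 1 fit of both sets, which share no control library. For 5 of the 10 genes they differed at an adjusted p under 0.05, 4 with a higher value for 4OHT and 1 with a lower one, where 25.3% of all entries differed, 13.7% higher and 11.6% lower. Dnmt3l differed most, by 2.44 ± 0.274 on the log2 scale (SE; edgeR adjusted p = 2.33e-06), being higher with 4OHT than with DMSO and lower in the libraries labelled Mettl3 KO than in those labelled WT. Uhrf1 differed the other way, by -0.46 ± 0.104 (SE; edgeR adjusted p = 0.00278). Both differences passed the threshold in all 18 alternative settings. Dnmt3a differed by 0.59 (edgeR adjusted p = 0.00873), Tet1 by 0.44 (edgeR adjusted p = 0.00936) and Tet2 by 0.46 (edgeR adjusted p = 0.0436), the last in 5 of 18 settings. The count was 2 without Mettl3 WT replicate 1 and 3 without WT replicate 2. For Dnmt1 the 95% interval of the difference ran from -0.30 to 0.09, for Dnmt3b from -0.03 to 0.87, for Zfp57 from 0 to 0.61, for Tet3 from -0.19 to 0.56 and for Tdg from -0.41 to 0.17.

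In Dux-Het cells, heterozygous for Dux by their label, 4OHT changed 4 of the 10 genes, 1 higher and 3 lower, where 9.34% of all 29322 entries changed, 4.99% higher and 4.34% lower. Groups did not overlap for 5 of the 10 genes, against 57.1% of entries. Uhrf1 had 144 and 141 CPM with 4OHT, against 261 and 257 CPM with DMSO (log2 fold change -0.86 ± 0.133, SE; edgeR adjusted p = 0.00343). Dnmt3b had 199 and 102 CPM with 4OHT, against 345 and 291 CPM with DMSO (-1.07 ± 0.256, SE; edgeR adjusted p = 0.025). The DMSO libraries were the higher ones in both genes, and the 4OHT libraries of Dnmt3b lay far apart. Tdg had 30.7 and 28.8 CPM with 4OHT, against 47.4 and 50.5 CPM with DMSO (-0.72 ± 0.156, SE; edgeR adjusted p = 0.0171), and Dnmt3l had 138 and 134 CPM with 4OHT, against 99.7 and 93.6 CPM with DMSO (0.50 ± 0.131, SE; edgeR adjusted p = 0.0375). Dnmt1 had 159 and 182 CPM with 4OHT, against 225 and 245 CPM with DMSO, which did not overlap but missed the threshold (-0.46, edgeR adjusted p = 0.0669). With the replicate block it passed (-0.46, edgeR adjusted p = 0.0124), as with DESeq2 (DESeq2 adjusted p = 0.048). The remaining 5 genes overlapped between treatments. Dnmt3a had 186 and 102 CPM with 4OHT, against 168 and 178 CPM with DMSO (-0.26, edgeR adjusted p = 0.522), and Zfp57 had 97.9 and 132 CPM with 4OHT, against 124 and 143 CPM with DMSO (-0.21, edgeR adjusted p = 0.46). Tet1 had 1051 and 1255 CPM with 4OHT, against 833 and 1117 CPM with DMSO (0.24, edgeR adjusted p = 0.439), while Tet2 (0.01) and Tet3 (-0.03) had fold changes near 0 with intervals of -0.51 to 0.53 and -0.36 to 0.30. The count was 1 without Dux-Het 4OHT replicate 2, 2 without either DMSO replicate and 3 without 4OHT replicate 1, where Dnmt3a was called lower (-0.76, edgeR adjusted p = 0.0456) and Dnmt3l and Tdg were not called.

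In Dux-KO cells, 3 of the 10 genes changed with 4OHT, 1 higher and 2 lower, where 9.86% of all entries changed, 5.5% higher and 4.36% lower. Groups did not overlap for 8 of the 10, against 65% of entries. Uhrf1 had 134 and 141 CPM with 4OHT, against 267 and 236 CPM with DMSO (log2 fold change -0.87 ± 0.133, SE; edgeR adjusted p = 0.00311). Dnmt3l had 159 and 148 CPM with 4OHT, against 97.9 and 92.7 CPM with DMSO (0.69 ± 0.132, SE; edgeR adjusted p = 0.0101). Each gene kept its groups apart, Uhrf1 low and Dnmt3l high with 4OHT. Tdg had 35.2 and 30.6 CPM with 4OHT, against 53.9 and 45.2 CPM with DMSO (-0.59 ± 0.156, SE; edgeR adjusted p = 0.0374). Dnmt3b had 189.8 and 201 CPM with 4OHT, against 374 and 299 CPM with DMSO (-0.79, edgeR adjusted p = 0.0753), and Dnmt1 had 153 and 168 CPM with 4OHT, against 225 and 205 CPM with DMSO (-0.43, edgeR adjusted p = 0.0794). Tet1 had 1067 and 1149 CPM with 4OHT, against 714 and 922 CPM with DMSO (0.43, edgeR adjusted p = 0.153). Dnmt3a (0.23) and Zfp57 (-0.21) also had separate groups without passing the threshold (edgeR adjusted p = 0.571 and 0.442), and Tet2 (0.08) and Tet3 (-0.07) overlapped. Without either Dux-KO 4OHT replicate 0 genes passed, and without DMSO replicate 1 there were 2. The replicate block gave 6, adding Dnmt1 (edgeR adjusted p = 0.0187), Dnmt3b (edgeR adjusted p = 0.00044) and Tet1 (edgeR adjusted p = 0.00945), and DESeq2 gave 5, adding Dnmt1 (DESeq2 adjusted p = 0.0428) and Dnmt3b (DESeq2 adjusted p = 0.0116).

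Averaged over both Dux genotypes, 5 of the 10 genes changed with 4OHT, 1 higher and 4 lower, beside 25.4% of all entries, 13.7% higher and 11.8% lower. Uhrf1 had a log2 fold change of -0.86 (edgeR adjusted p = 0.000131), Dnmt3b of -0.93 (edgeR adjusted p = 0.00392), Tdg of -0.66 (edgeR adjusted p = 0.00178), Dnmt1 of -0.44 (edgeR adjusted p = 0.00848) and Dnmt3l of 0.59 (edgeR adjusted p = 0.00125). Each of these had the sign it had in the first set, which shares no library with this one. Dnmt3a (-0.02), Zfp57 (-0.21), Tet2 (0.05) and Tet3 (-0.05) were not called, and Tet1 had 0.34 (edgeR adjusted p = 0.073). Tet1 was called with the replicate block (0.35, edgeR adjusted p = 0.00228) and when low counts were kept (edgeR adjusted p = 0.0118). It was also called without Dux-Het DMSO replicate 2 (edgeR adjusted p = 0.0244) or Dux-KO DMSO replicate 2 (edgeR adjusted p = 0.0472).

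No gene of the 10 differed between Dux-KO and Dux-Het at an adjusted p under 0.05, with edgeR or DESeq2. Under 4OHT, 0 of 10 passed, against 0.276% of entries, and under DMSO, 0 of 10, against 0.0341%. The 4OHT effect differed between genotypes for 0 of 10 and for 0% of entries. At an unadjusted edgeR p under 0.05 the counts were 0 in all 3, beside 2.98%, 2.58% and 1.64% of entries. Groups did not overlap for Uhrf1 and Dnmt3l under 4OHT, 2 of 10 against 30.1% of entries, and for Zfp57 under DMSO, 1 of 10 against 21.2%. The 95% interval of the Dux-KO effect minus the Dux-Het effect ran from -0.42 to 0.40 for Uhrf1, from -0.22 to 0.59 for Dnmt3l, from -0.41 to 0.47 for Dnmt1, from -0.36 to 0.61 for Tdg, from -0.50 to 1.07 for Dnmt3b and from -0.23 to 1.22 for Dnmt3a. Markers of 2-cell-like cells summed to 96.9 to 115 CPM with 4OHT and 11.5 to 15.8 CPM with DMSO in Dux-Het cells. In Dux-KO cells they summed to 1.01 to 1.07 CPM with 4OHT and 0.37 to 0.777 CPM with DMSO, with 10 and 11 of the 16 at 0. In those Dux-KO libraries Uhrf1 and Dnmt3l had the log2 fold changes of -0.87 and 0.69 given above. ESC markers summed to 1310 to 1453 CPM with 4OHT and 1861 to 1880 CPM with DMSO in Dux-Het cells. In Dux-KO cells they summed to 1289 to 1329 CPM with 4OHT and 1718 to 1972 CPM with DMSO. Of the 8 ESC markers, 0 were called higher and 3 lower with 4OHT in Dux-Het, beside 4.99% and 4.34% of all entries. In Dux-KO cells 0 were called higher and 2 lower, beside 5.5% and 4.36%. Primitive endoderm markers summed to 297 to 317 CPM with 4OHT and 191 to 293 CPM with DMSO in Dux-Het, and to 334 to 363 CPM with 4OHT and 276 to 327 CPM with DMSO in Dux-KO cells. Fibroblast markers summed to 49.2 to 61.7 CPM with 4OHT and 23.8 to 78.8 CPM with DMSO in Dux-Het, and to 40.1 to 44.3 CPM with 4OHT and 72 to 84.4 CPM with DMSO in Dux-KO cells, with Lum at 0 in 3 of these 4 groups. Primed epiblast markers summed to 65.1 to 139.7 CPM with 4OHT and 103 to 140.0 CPM with DMSO in Dux-Het, and to 126 to 152 CPM with 4OHT and 136 to 145 CPM with DMSO in Dux-KO cells. The part of these marker differences in the changes of the 10 genes was not tested.

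The 4OHT effect of the first set was larger than the mean Dux-set effect for Dnmt3l, by 0.82 ± 0.182 on the log2 scale (SE; edgeR adjusted p = 0.0243), and for Tet3, by 0.54 ± 0.135 (SE; edgeR adjusted p = 0.0456). These 2 of 10, both higher, compare with 1.52% of all entries, 0.953% higher and 0.568% lower. The Dnmt3l difference passed the threshold in 15 of 22 alternative settings and the Tet3 difference in 7. With the replicate block the Tet1 difference was called too (-0.32, edgeR adjusted p = 0.029). Between 0 and 2 of the 10 genes passed when 1 library was left out, with 0 in the absence of DMSO replicate 2, 3 or 4, 4OHT replicate 1, Dux-KO DMSO replicate 1 or either Dux-KO 4OHT replicate. A single gene passed in the absence of DMSO replicate 1, 4OHT replicate 2 or 4, Dux-Het DMSO replicate 1 or either Dux-Het 4OHT replicate.

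The pair with no Dux label has 1 library a treatment and hence no test. Uhrf1 had 147 CPM with 4OHT and 266 CPM with DMSO, a log2 ratio of -0.85 with an exact Poisson 95% interval of -0.90 to -0.81 that covers counting error only. Dnmt1 had 182 CPM with 4OHT and 251 CPM with DMSO (-0.46), Dnmt3b 149 and 200.5 CPM (-0.43) and Tdg 25.8 and 39.4 CPM (-0.61), each in the same order of treatments. Dnmt3l had 123 CPM with 4OHT and 108 CPM with DMSO, a log2 ratio of 0.18 with an interval of 0.12 to 0.24. The remaining genes had log2 ratios between -0.19 and 0.14.

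Ranked by group mean, Dnmt3l was highest in the first set's 4OHT group (158 CPM), followed by Dux-KO 4OHT (154) and Dux-Het 4OHT (136 CPM). The first of these overlapped the second, and Dux-KO 4OHT lay above Dux-Het 4OHT. The first set's DMSO group (62.3 CPM) and Mettl3 KO (43.6 CPM) were the lowest 2. Uhrf1 was highest in the first set's DMSO group (282 CPM), ahead of the other DMSO groups at 251 to 266 CPM and Mettl3 WT at 209 CPM. The 4OHT groups, at 138 to 163 CPM, filled the last 4 places. Dux-Het DMSO and Dux-KO DMSO overlapped, as did Mettl3 KO and the first set's 4OHT group. These orders cross sets that may have been made apart.

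Across the 22 libraries, after each set's mean was subtracted from log2(CPM + 0.5), Dnmt1 and Uhrf1 were the most alike of the 10 genes (Pearson r = 0.948), followed by Uhrf1 and Tdg (0.881) and Dnmt3b and Tdg (0.834). Tet1 and Tet2 had r = 0.75 and Dnmt3a and Dnmt3b 0.72. Dnmt3l ran against Uhrf1 (-0.652) and Dnmt1 (-0.562). Libraries share treatments, so these values are descriptions and carry no test. Among 18833 entries, those most like Uhrf1 included Tkt (0.986) and Lig1 (0.986), and those most like Dnmt1 were Nup188 (0.984), Mcmbp (0.978) and Bub1b (0.976). LIG1 joins DNA at replication and BUB1B acts in the mitotic checkpoint. Tdg was nearest to Cct3 (0.978), Psma5 (0.965) and Atp2a2 (0.96), and Dnmt3b to Chd4 (0.954), Eif5a (0.93) and Rpl6 (0.925). Dnmt3l was nearest to 2900011O08Rik (0.946), Akr1b8 (0.938) and Rarg (0.916), a retinoic acid receptor gene. Dnmt3a was nearest to Myrf (0.891), Phc1 (0.869) and Bche (0.865), and Zfp57 to Irf5 (0.903), Gm10093 (0.874) and Aifm2 (0.872). For the TET genes, Tet1 was nearest to Ube2d3 (0.881), Ift80 (0.878) and Gm44130 (0.865), Tet2 to Pura (0.893), Pitpnc1 (0.872) and Triml2 (0.856), and Tet3 to Errfi1 (0.83), Elovl1 (0.819) and Tctn2 (0.814).

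**Figure D4:**
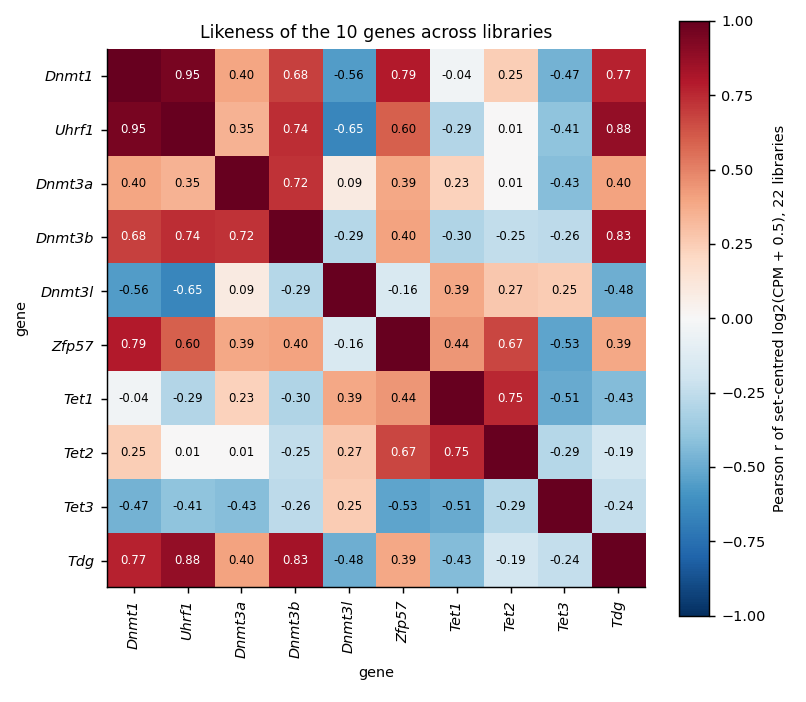
Pearson r between the 10 genes over 22 libraries, from log2(CPM + 0.5) after each set's mean was subtracted, with both axes listing the genes and red for positive values. Dnmt1, Uhrf1, Dnmt3b and Tdg form a block of high values (0.948 for Dnmt1 with Uhrf1), and Dnmt3l is negative against Uhrf1 (-0.652).

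Genes that act around the 10 were described from 5 lists, with log2 fold changes beside each name. All list genes named passed an adjusted p under 0.05 in the comparison given. The counts stand beside shares over all entries of 23.7% higher and 21.4% lower in the first set, 16.4% higher and 14.9% lower in Mettl3 KO, and 13.7% higher and 11.8% lower in the mean Dux-set effect. Of 18 cofactors and regulators of DNA methylation, 2 were higher and 9 lower with 4OHT than with DMSO in the first set, with a median log2 fold change of -0.323. Trdmt1, a relative of the Dnmt genes that methylates tRNA, rose by 0.82 on the log2 scale (SE 0.138; edgeR adjusted p = 0.000139) and Nsd1, a histone methyltransferase whose mark recruits DNMT3A, by 0.32 (edgeR adjusted p = 4.31e-05). Prdm14, which restrains de novo methylation in naive ESCs, fell by 1.54 (SE 0.24; edgeR adjusted p = 6.83e-05) and Dppa3, which protects against methylation by displacing UHRF1, by 1.25 (edgeR adjusted p = 0.000533). In Mettl3 KO against WT, 4 were higher and 7 lower (median -0.212), and there Prdm14 was higher (0.81, edgeR adjusted p = 0.00448), Nsd1 higher (0.82, edgeR adjusted p = 4.71e-05), and Dnmt3c (-0.82, edgeR adjusted p = 0.0374) and Dppa3 (-0.80, edgeR adjusted p = 0.00975) lower. The difference of the 2 effects for Prdm14 was -2.31 (edgeR adjusted p = 0.000126). In the mean Dux-set effect, 2 were higher and 8 lower (median -0.26, beside 0.052 over all entries). Trdmt1 (0.79) and Nsd1 (0.35) led upward, and Ehmt2 (-1.27), a histone methyltransferase, and Dnmt3c (-0.95) downward. Dnmt3c is a near-copy of Dnmt3b, which had -0.97 in Mettl3 KO and -0.93 in the mean Dux-set effect. Whether reads of Dnmt3b were counted for Dnmt3c was not tested.

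Of 10 genes listed as readers of methylated CpG, 5 were higher and 1 lower with 4OHT in the first set (median 0.17), beside 23.7% higher and 21.4% lower over all entries. The list includes Mbd3, Mbd5 and Mbd6. Being on it does not show that a protein binds methylated CpG, which was not measured here. Zbtb4 (0.62, edgeR adjusted p = 0.000357) and Zbtb38 (0.49, edgeR adjusted p = 1.48e-05), zinc finger proteins that bind methylated DNA, rose, and Mbd4, a glycosylase for mismatches at CpG, fell (-0.43, edgeR adjusted p = 0.00108). In Mettl3 KO, 4 were higher and 2 lower (median 0.348), with Zbtb33 (0.80) among the higher genes and Mbd4 (-0.60) and Mbd6 (-0.42) lower. In the mean Dux-set effect, 3 were higher and 1 lower (median 0.187), with Mbd2 (0.73) and Zbtb4 (0.67) higher and Mbd3 (-0.43) lower.

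Of 24 TET partners and base excision repair genes, 3 were higher and 11 lower with 4OHT in the first set (median -0.165). Gadd45g, of a family linked to demethylation, rose by 1.89 (SE 0.181; edgeR adjusted p = 4.47e-07) and Apobec1, a cytidine deaminase, by 0.83 (edgeR adjusted p = 1.92e-06). Idh2 (-1.30, edgeR adjusted p = 7.32e-08) and Idh1 (-0.97, edgeR adjusted p = 5.08e-07), enzymes that make the 2-oxoglutarate used by TETs, fell. In Mettl3 KO, 4 were higher and 8 lower of 23 tested (median -0.23), with Cxxc4 (1.85) and Cxxc5 (1.46), zinc finger genes related to the DNA-binding part of TETs, higher and Gadd45a (-1.23) and Idh1 (-0.74) lower. In the mean Dux-set effect, 2 were higher and 6 lower (median -0.126), with Gadd45g (2.34) and Apobec1 (1.06) higher and Idh2 (-0.99) and Parp1 (-0.77) lower.

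Methyl donor metabolism supplies S-adenosylmethionine to the methyltransferases among these enzymes. Of 16 tested genes, 2 were higher and 7 lower with 4OHT in the first set (median -0.156), with Mat2a (0.48), which makes the donor, among the higher genes and Gnmt (-0.99) and Shmt2 (-0.94), a mitochondrial serine enzyme, lower. In Mettl3 KO, 1 was higher (Amd1, 0.44) and 8 lower (median -0.333), led by Shmt2 (-1.36) and Gnmt (-1.27). In the mean Dux-set effect, 0 of 17 were higher and 9 lower (median -0.389), led by Gnmt (-1.54) and Shmt2 (-1.45). Of germline genes known to be silenced by promoter methylation, 18 were tested in the first set, and 5 were higher and 4 lower with 4OHT (median 0.164). Both shares are near those over all entries, 23.7% higher and 21.4% lower. Taf7l (1.39, edgeR adjusted p = 0.00745) and Tex19.1 (0.82, edgeR adjusted p = 1.38e-05) rose, while Sohlh2 (-1.61, edgeR adjusted p = 1.29e-05) and Tuba3a (-1.30, edgeR adjusted p = 0.000962) fell. In Mettl3 KO, 5 of 18 were higher and 0 lower (median 0.268), led by Rpl10l (3.24) and Fkbp6 (1.5). In the mean Dux-set effect, 4 of 20 were higher and 1 lower (median 0.205), with Taf7l (1.62) and Asz1 (1.54) higher and Sohlh2 (-0.93) lower.

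**Figure D5:**
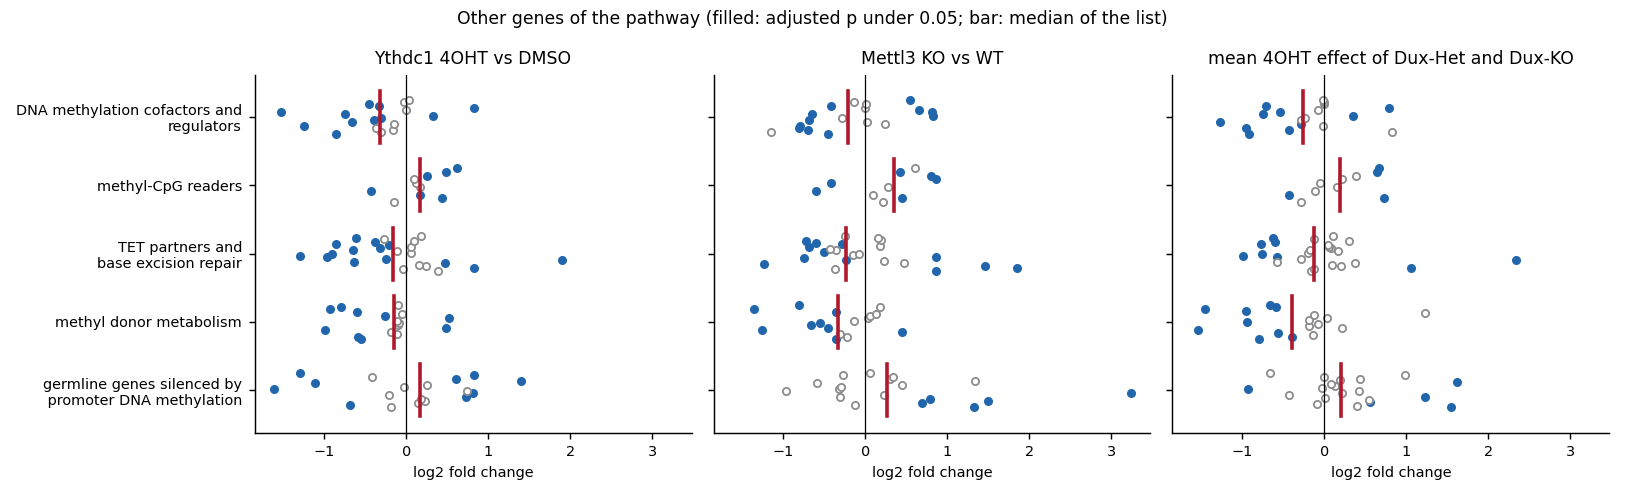
Log2 fold change of the other pathway genes by list, in the first set, in Mettl3 KO against WT and in the mean Dux-set 4OHT effect; filled points passed an adjusted p under 0.05 and the red bar is the list's median. The medians of regulators (-0.323 in the first set) and methyl donor genes lie left of 0 in all 3 panels, and those of the genes listed as methyl-CpG readers and of the germline genes lie right of 0.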

How the data were processed

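Per the labels' protocols, total RNA was depleted of ribosomal RNA with RNase H and sequenced as paired reads on an Illumina HiSeq. Tools named by the submitters' processing notes, with no role given, are STAR 2.7, RSEM, Bowtie2 and bcl2fastq, on mm10. The authors deposited 1 table of raw counts for 44749 entries (43672 match GENCODE symbols and 1077 are repeat families) in 22 libraries. Their second deposited table holds the same counts divided by 1 factor per library, a normalized signal used only to recover those factors (largest relative deviation 5.44e-15), and only its 34971 complete lines, with 4 of the 10 genes, were read.

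Counts were tested with edgeR 4.0.16 in R 4.3.3 (entries filtered by group, TMM scaling, quasi-likelihood test, Benjamini-Hochberg adjustment over all entries, threshold 0.05), each set fitted alone and joint fits used only for differences of effects. The test was tried on simulated data with 200 changed genes. Ratios used exact permutation in scipy 1.17.1. Alternatives were RLE scaling, the authors' factors, no low-count filter, gene entries alone, a replicate block, DESeq2 1.42.0 and leaving out each library. Levels are CPM with TMM over 22 libraries, per kb of GENCODE vM21 exon union where genes are compared. Library totals of 24955414 to 54139132 leave each gene at least 702 counts.

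Samples were grouped by title or treatment. All 10 genes are named in each comparison, together with the 2 largest called changes in each direction of every list and the 3 entries most like each gene; a few entries that this rule picks are not reported here. The 10 genes, the lists and the tests were chosen with earlier results of these data known.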

Additional observations from a re-analysis of the deposited data

Results flagged for a closer look

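Dixon's test at the 95% level was run on 28 groups of 4 libraries, where chance marks about 1 in 20, and 4 were marked. In the first set, Tet3 had 75.8 CPM in 4OHT replicate 4, above the other 4OHT libraries, and Tdg had 26.5 CPM in 4OHT replicate 2, also above the others. The log2 ratio of Uhrf1 over Dnmt1 was -0.231 in 4OHT replicate 2, above the other 3. Dnmt1 had 303 CPM in DMSO replicate 1, above the other DMSO libraries.

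Effects that differed between sets by a test of the difference were as follows. The first set's 4OHT effect minus the Mettl3 KO effect was 2.44 for Dnmt3l, 0.59 for Dnmt3a, 0.44 for Tet1, 0.46 for Tet2 and -0.46 for Uhrf1 on the log2 scale. The first set's effect minus the mean Dux-set 4OHT effect was 0.82 for Dnmt3l and 0.54 for Tet3. No explanation was weighed for any of these values.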

How the results depend on the processing

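Of 1320 recomputed values of the 10 genes, 1224 stayed on their side of the threshold, 78 lost a call and 18 gained one. Among the 1224, the sign turned in 81 values of 34 results, none past the threshold under either setting and none larger than 0.341 in size. Scaling moved the median of all entries by at most 0.045 (log2). The number of the 10 genes called was within 1.5 times the reported number, leaving out libraries aside, except in Dux-KO cells (6 with the replicate block, 5 with DESeq2) and for the first set's effect minus the Dux-set effect (1 with RLE scaling, 1 with the authors' factors). Leaving out 1 library gave 0 to 9 genes for Mettl3 KO, 1 to 3 for Dux-Het, 0 to 3 for Dux-KO, 2 to 5 for the first set's effect minus the Mettl3 effect and 0 to 2 for its difference from the Dux-set effect. Where a group then had 1 library, it was assumed to vary like the other groups. The ratio differences ran from 0.276 to 0.445 for Dnmt3a over Dnmt3b (adjusted exact p 0.0381 to 0.152), 1.565 to 1.737 for Dnmt3l over Dnmt3a and -0.314 to -0.269 for Uhrf1 over Dnmt1 (both 0.0381 to 0.0571) and -0.162 to -0.065 for Tet1 over Tet2 (0.0381 to 0.371).

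Over all entries, keeping low counts gave 4319 calls for 2738 in Dux-Het, 4701 for 2890 in Dux-KO, 272 for 81 and 124 for 10 between genotypes under 4OHT and DMSO, 28 for 0 in the interaction and 1435 for 442 for the first set's effect minus the Dux-set effect. The replicate block gave 6098, 6801, 292, 132, 5 and 1792 in the same order. DESeq2 gave 17 between genotypes under DMSO, 2 in the interaction and 1060 for the last. The cause of these shifts was not tested.

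Libraries with the same replicate number deviated together with correlations of 0.31, 0.085, 0.314 and 0.313 in the first set (12690 entries of at least 5 CPM), so 1 of the 4 pairs did not exceed 0.1 and the numbers were not taken to pair the libraries, although each library was highest with its own number, a hint from the data and not the design. The 2 pairs had 0.064 in the Mettl3 set, 0.536 in Dux-Het and 0.235 in Dux-KO, too few to show whether the numbers pair the libraries. In the Dux set the block changed no call of the 10 genes beyond those given beside the results. With the replicate block the first set called 8 of the 10 genes, as without it, and the exact test of 4 pairs gave an adjusted p of 0.167 to 0.25 for the ratios, with 0.125 the smallest raw p possible.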
